A study of Mus musculus with 8 samples.

Results

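Genes of protein phosphorylation signalling were followed here across young and aged mouse cortex cells: kinases, phosphatases, the proteins that anchor kinases, lipid kinases and phosphodiesterases. The members were all sites in the authors' deposited table of differentially methylated sites whose gene name begins with 1 of 20 kinase, phosphatase or related name starts (such as Ppp, Ptp, Prk, Mapk, Camk, Csnk or Pde), leaving out Ppp3ca, Ptprd, Camk2a and Camk2n1. No measured value entered that choice, but the table lists only sites that passed the authors' own filters: no listed site with a methylated aged cell has a log2 ratio of the means closer to 0 than 0.58. The rule found 60 of the 2055 listed sites, in 38 of the 789 listed genes. Cortex was taken from mice with the genotype APOBEC1-YTH, a fusion of a cytidine deaminase to the m6A-binding YTH domain that turns C next to N6-methyladenosine (m6A) into U in RNA. The aged group had an age of 12 to 14 months when tamoxifen began, received 20 mg/kg every 24 h for 5 days, and was sampled 7 days after the last dose. Its 8 libraries were 4 lanes of each of 2 sublibraries of split-pool barcoded whole cells, so they were not separate animals. The young group belongs to a companion series and enters only through this table, so that its age, treatment and library kit were not used here. The promoter driving the fusion and the number of mice were not given in the sources used here, and the series' design text describes NeuN-sorted nuclei where the sample protocols describe dissociated cells.

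Protein kinases attach phosphate to serine, threonine or tyrosine, and phosphatases remove it. In cortical neurons this pair of activities links calcium, cyclic AMP and growth factor signals to synaptic strength, the cytoskeleton and transcription. m6A is a mark on messenger RNA that is concentrated in long exons and near stop codons and that is read by YTH proteins which bear on RNA decay, transport and translation.

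The table gives 3 linked quantities per site and age, each pooled over 2623 young or 846 aged cells: the share of cells with C-to-U at the site (called methylated cells), the C-to-U fraction within those cells, and the mean fraction over all cells, which is the product of the other two. Cells without a read at the site count as unmethylated. Lower methylation, less RNA per cell and fewer cells with the transcript therefore cannot be told apart. All young values come from the companion series and all aged values from this one. Age therefore cannot be told apart from series, library preparation or sequencing run either. There is no value per library or mouse, so no difference below has a replicate check and none was tested here. The intervals are exact binomial (Clopper-Pearson) 95% intervals over cells and cover counting error only. Read depth per site is not in the table. A low fraction within methylated cells does require many reads at the site in at least some of them. Member sites had 10 to 336 methylated young cells and 0 to 73 methylated aged cells, with medians of 24 and 17. Over all listed sites the share was mostly higher in aged cells, with a median log2 ratio of 1.14, and 28 of the 60 member sites lay above that median. Of 22 glial and vascular marker genes, 2 had listed sites, with a higher share in aged cells at all 12 of them, against 75.4% of all listed sites, and a higher mean at 6 of the 12. Their median log2 ratio of the shares was 1.16. Slc1a2, the astrocyte glutamate transporter, held 10 of these sites. The part of cell type makeup in the results below was not tested.

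Mean C-to-U was higher in the aged cells at 26 of the 60 member sites and lower at 34. The share higher was 43.3%, against 41.5% of all listed sites. The median log2 ratio of the means was -0.83 over members and -0.87 over all listed sites. By gene, each taking its site with the largest difference, 17 of 38 were higher, or 44.7% against 55.8% of all listed genes. The counts of higher genes in each class below stand against that 55.8%, and none of them was tested. The largest decrease was at Ppp3r1, the regulatory B subunit of calcineurin, from 4.97% to 0.593%. The largest increases were at Csnk1a1, a casein kinase of the Wnt pathway, from 1.27% to 4.01%, at Mapk8ip3, a scaffold for JNK signalling, from 0.680% to 3.14%, and at Prkg1, the cyclic GMP-dependent kinase, from 0.731% to 2.98%. A doubling or more was seen at 24 member sites (40.0%, against 32.3% of all listed sites), and a halving or more at 29 (48.3%, against 46.9%).

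Both quantities behind the mean were needed to describe a site. A larger share of aged than of young cells was methylated at 46 member sites (76.7%, against 75.4% of all listed sites), and C-to-U within methylated cells was higher in the aged at 25 of 59 (42.4%, against 31.9%). The count by share is limited by the listed minimum of 25 methylated cells over both ages. As the aged cells were fewer, a site with few methylated young cells could reach it only with a higher aged share. At such sites the direction of the share was fixed by the listing. The intervals of the shares lay apart with the aged share higher at 23 sites (38.3%, against 47.4%) and with the aged share lower at 8 (13.3%, against 15.1%), and they overlapped at 29. Sites fell into 3 patterns. At 26 sites both the mean and the share were higher (43.3%, against 40.1%). At 20 sites a lower mean went with a higher share (33.3%, against 35.3%), as at the myosin phosphatase gene Ppp1r12a. At 14 sites both were lower (23.3%, against 23.3%), as at Ppp3r1 and 3 sites of Camk2b. No member site had a higher mean with a lower share, a pattern held by 27 of all listed sites.

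**Figure D1:**
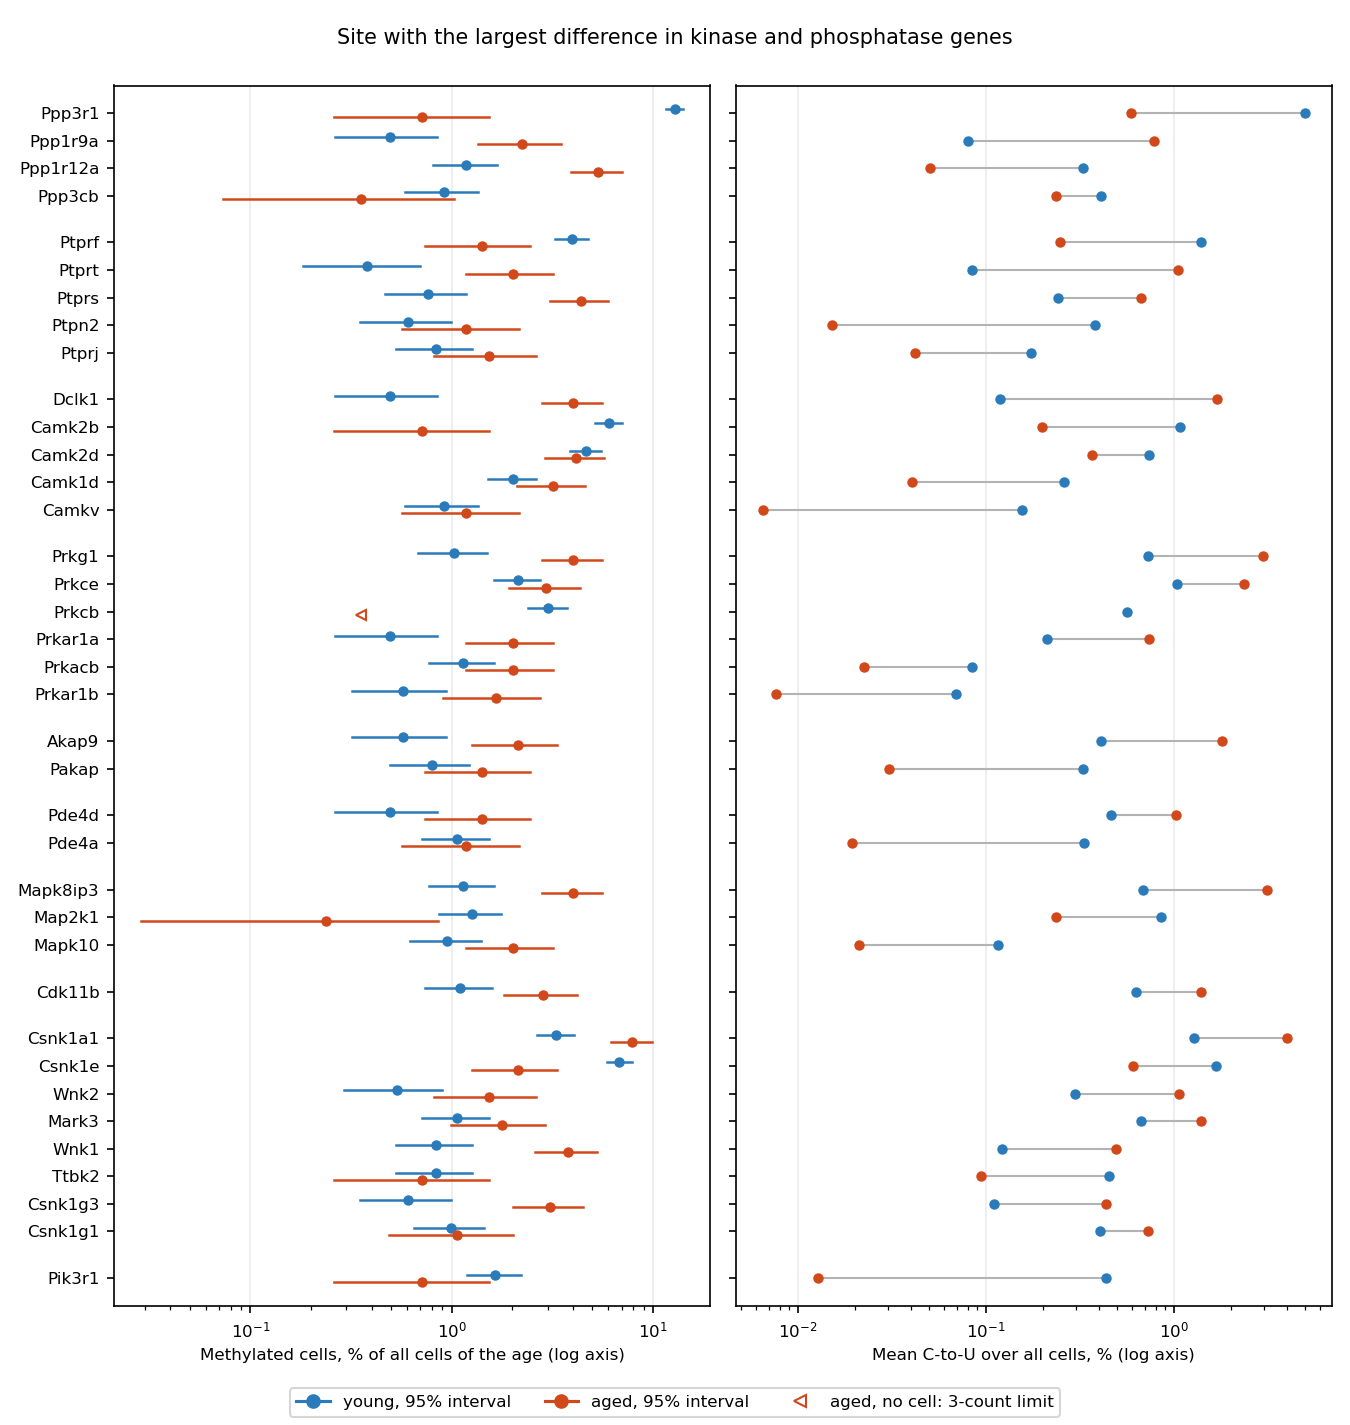
For the site with the largest difference in 37 of the 38 genes, the left panel plots the share of methylated cells (percent, log axis, with 95% binomial intervals) and the right panel the mean C-to-U over all cells (percent, log axis), for young (blue) and aged (orange) cells, with genes grouped by role. Ppp3r1 stands at 12.8% of the young and 0.709% of the aged cells; Prkcb had no methylated aged cell, so its floor of 3 counts, 0.355%, is drawn in place of an interval as an open triangle in the left panel and it has no aged point in the right panel.

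The bases around the edited C are shown for a choice of sites: some of those with large differences, neighbouring sites compared below, and examples of coding, 3' UTR and A-rich surroundings. Each run is 21 bases of the transcript strand (GENCODE M21, GRCm38, the assembly also named mm10), read 5′ to 3′, and capitals mark the edited C and the A before it where there is one.
Ppp3r1 in the 3' UTR, plus strand, chr11:17199272-17199292: tgtcactgaACtgtaaatcat
Mapk8ip3 in coding sequence, minus strand, chr17:24906890-24906910: gtcaggagaACaggaggtcct
Prkg1 in coding sequence, minus strand, chr19:31664136-31664156: gcagaacgaACtggacaagta
Prkg1 in coding sequence, 4 bases upstream, chr19:31664140-31664160: agctgcagaACgaactggaca
Akap9 in coding sequence, plus strand, chr5:4050338-4050358: acagagagaACagacaaggtg
Akap9 in coding sequence, plus strand, chr5:4064289-4064309: agacaaggaACgggagctgta
Prkce in coding sequence, plus strand, chr17:86630101-86630121: cagcgcagaACggggaggacg
Camk2b in the 3' UTR, minus strand, chr11:5971650-5971670: aagatgatgACaacgacaacc
Camk2b in the 3' UTR, 6 bases downstream, chr11:5971644-5971664: atgacaacgACaaccacacgc
Camk2b in the 3' UTR, distal, chr11:5970205-5970225: aagtggggaACgggacacagg
Dclk1 in the 3' UTR, plus strand, chr3:55470009-55470029: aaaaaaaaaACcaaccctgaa
Ppp1r12a in coding sequence, plus strand, chr10:108260952-108260972: taaagagaaACaagaagaaaa
The edited C followed an A at 52 of 60 member sites (86.7%), against 76.8% of the 1982 listed sites whose edited base read C on the gene's strand. It stood in AAC or GAC at 50 (83.3%, against 71.9%). The 5 bases GAACG, with the edited C at the fourth, occurred at 7 member sites (11.7%, against 8.83% of listed sites). These 7 include Prkce, the distal Camk2b site, the upstream Prkg1 site and the last Akap9 site, all with a higher mean in aged cells. Map2k1, Ptpn2 and a Prkacb site also had GAACG, and their means were lower, so the letters did not go with a direction. The base after the C was A at 29 sites (48.3%, against 42.9% of listed sites) and G at 21 (35.0%, against 28.9%). More than 10 of the 21 bases were A at 20 member sites (33.3%, against 32.7%), as in the Dclk1 and Ppp1r12a runs above. These matches are a description of letters and are not evidence of a methylated base.

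The serine/threonine phosphatase genes were 4, with 6 sites, and 1 of the 4 was higher in aged cells. Ppp3r1 carries the calcium-binding subunit of calcineurin, the calcium-activated phosphatase of neurons. Its site lay in the last exon, 976 bases past the stop codon, on chromosome 11 at position 17199282 (mm10, counted from 1). Methylated cells were 12.8% (11.6 to 14.1) of the young and 0.709% (0.261 to 1.54) of the aged cells, an 18.1-fold lower share that rests on 336 young and 6 aged methylated cells. Within methylated cells C-to-U was higher in the aged, at 83.6% against 38.8%. Its adjusted p in the authors' deposited table was 0.00153. There the 3' UTR site of Csnk1a1, with 19 young and 24 aged methylated cells, had 8.61e-11. The test behind these values is not given, and they do not measure the gap between the shares. Ppp3cb, a catalytic subunit of calcineurin, had its 3' UTR site methylated in 24 young and 3 aged cells, shares of 0.915% (0.587 to 1.36) and 0.355% (0.0732 to 1.03) whose intervals overlap. Its mean was 0.407% in the young and 0.237% in the aged cells. Both calcineurin genes among the members thus had a lower mean and a lower share, with a higher fraction within the few methylated aged cells. Ppp3ca, a calcineurin gene left out by the rule, is not described here.

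Ppp1r9a, or neurabin, which brings protein phosphatase 1 to actin in dendritic spines, was the higher gene of this class. Its 3' UTR site had a mean of 0.0806% in the young and 0.779% in the aged cells, a log2 ratio of 3.27. Methylated cells were 0.496% (0.264 to 0.846) of the young and 2.25% (1.36 to 3.49) of the aged cells, so the intervals lay apart. Ppp1r12a, the subunit that targets phosphatase 1 to myosin, had 3 coding sites in exons 15 and 16 of 25. The aged mean was lower and the aged share higher at all 3. At the third, methylated cells were 1.18% (0.804 to 1.67) of the young and 5.32% (3.91 to 7.05) of the aged cells, while C-to-U within them was 27.9% and 0.945%. The mean there went from 0.329% to 0.0503%. The other Ppp1r12a sites had 27.9% and 6.09% within methylated young cells, against 1.35% and 0.616% in the aged.

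The tyrosine phosphatase genes were 5, with 8 sites, and 2 of the 5 were higher. Ptprf (LAR) and Ptprs are related receptor phosphatases that organise synapses through their extracellular domains, and they lay on opposite sides. Ptprf had a 3' UTR site with methylated cells at 3.96% (3.25 to 4.78) of the young and 1.42% (0.735 to 2.46) of the aged cells. Its mean went from 1.39% to 0.247%. Ptprs had 4 sites, all with a higher share in aged cells, but by mean 2 were higher and 2 lower. Its site with the largest difference lay in an exon of a retained-intron transcript, with a mean of 0.242% and 0.667% and shares of 0.762% (0.466 to 1.18) and 4.37% (3.10 to 5.98). Its coding sites in exon 19 of 33, 3 bases apart, differed in direction by mean. At position 56422218 on chromosome 17 the mean was 0.0695% in the young and 0.0143% in the aged cells, and at position 56422215 it was 0.0560% and 0.110%. By share they went the same way, from 0.419% to 2.48% and from 0.381% to 3.43%.

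Ptprt, another receptor phosphatase, had the second largest log2 ratio among the higher member sites, 3.64, on 10 young and 17 aged methylated cells. Its mean was 0.0841% in the young and 1.05% in the aged cells, with both the share and the fraction within cells higher. The C there followed a T. Ptpn2, a non-receptor phosphatase of the nucleus and endoplasmic reticulum, had a coding site 35 bases before the stop codon. Its share was 0.610% (0.349 to 0.989) in the young and 1.18% (0.568 to 2.16) in the aged cells, while C-to-U within methylated cells was 62.6% and 1.29%. Ptprj had the same pattern in its 3' UTR, with 20.6% and 2.73% within methylated cells and shares of 0.839% and 1.54%.

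Calcium/calmodulin and doublecortin kinase genes were 5 and held 13 sites, all placed in 3' UTRs. By gene, 1 of the 5 was higher, Dclk1. Camk2b, the actin-binding beta subunit of CaM kinase II, had 4 sites. The 3 sites from 128 to 174 bases past the stop codon were lower in aged cells, and the site 1613 bases past it was higher. At position 5971660 on chromosome 11, methylated cells were 6.06% (5.18 to 7.04) of the young and 0.709% (0.261 to 1.54) of the aged cells, and the mean went from 1.08% to 0.199%. At position 5971654, 6 bases further along the transcript, the shares were 6.79% (5.85 to 7.82) and 1.06% (0.488 to 2.01), and at position 5971700 they were 4.31% (3.56 to 5.16) and 0.591% (0.192 to 1.37). The intervals lay apart at all 3 proximal sites. The distal site had a mean of 0.589% in the young and 1.30% in the aged cells, with shares of 0.915% (0.587 to 1.36) and 1.77% (0.996 to 2.91) that overlap. Within methylated cells, C-to-U was higher in the aged at all 4 sites.

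Camk2d, the delta subunit, had sites 6 bases apart with a lower mean at both, 0.732% to 0.369% and 0.761% to 0.484%. Its shares were 4.65% (3.88 to 5.53) and 4.14% (2.90 to 5.71) at the first, and 2.13% (1.62 to 2.76) and 3.31% (2.21 to 4.75) at the second, with overlapping intervals at both. Camk1d, a CaM kinase I, had sites 8 bases apart in an A-rich stretch of its 3' UTR. The larger had a mean of 0.260% in the young and 0.0403% in the aged cells and the smaller 0.106% and 0.00738%, with shares that were higher in aged cells at both. Camkv, a CaM kinase-like protein of vesicles without kinase activity, went from 0.156% to 0.00650%, a log2 ratio of -4.59, while its share was 0.915% and 1.18%.

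Dclk1, a microtubule-binding kinase of the doublecortin family, had 4 sites in the last exon of the transcript used. The 3 distal sites, 3390 to 3394 bases past the stop codon and within 4 bases of each other, were all higher. At position 55470019 on chromosome 3, methylated cells were 1.03% (0.679 to 1.49) of the young and 8.63% (6.82 to 10.7) of the aged cells, the highest aged share of any member site. Its adjusted p in the authors' deposited table was 5.82e-33, the lowest among members. The next base, at position 55470020, had the largest log2 ratio of the means among member sites, 3.85, with a mean of 0.118% in the young and 1.70% in the aged cells. There the C followed another C. Sites so close can be read from the same molecules and are not separate evidence. The fourth site, 835 bases past the stop codon, had a lower mean (0.207% to 0.0212%) with a higher share (0.496% to 1.77%).

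**Figure D2:**
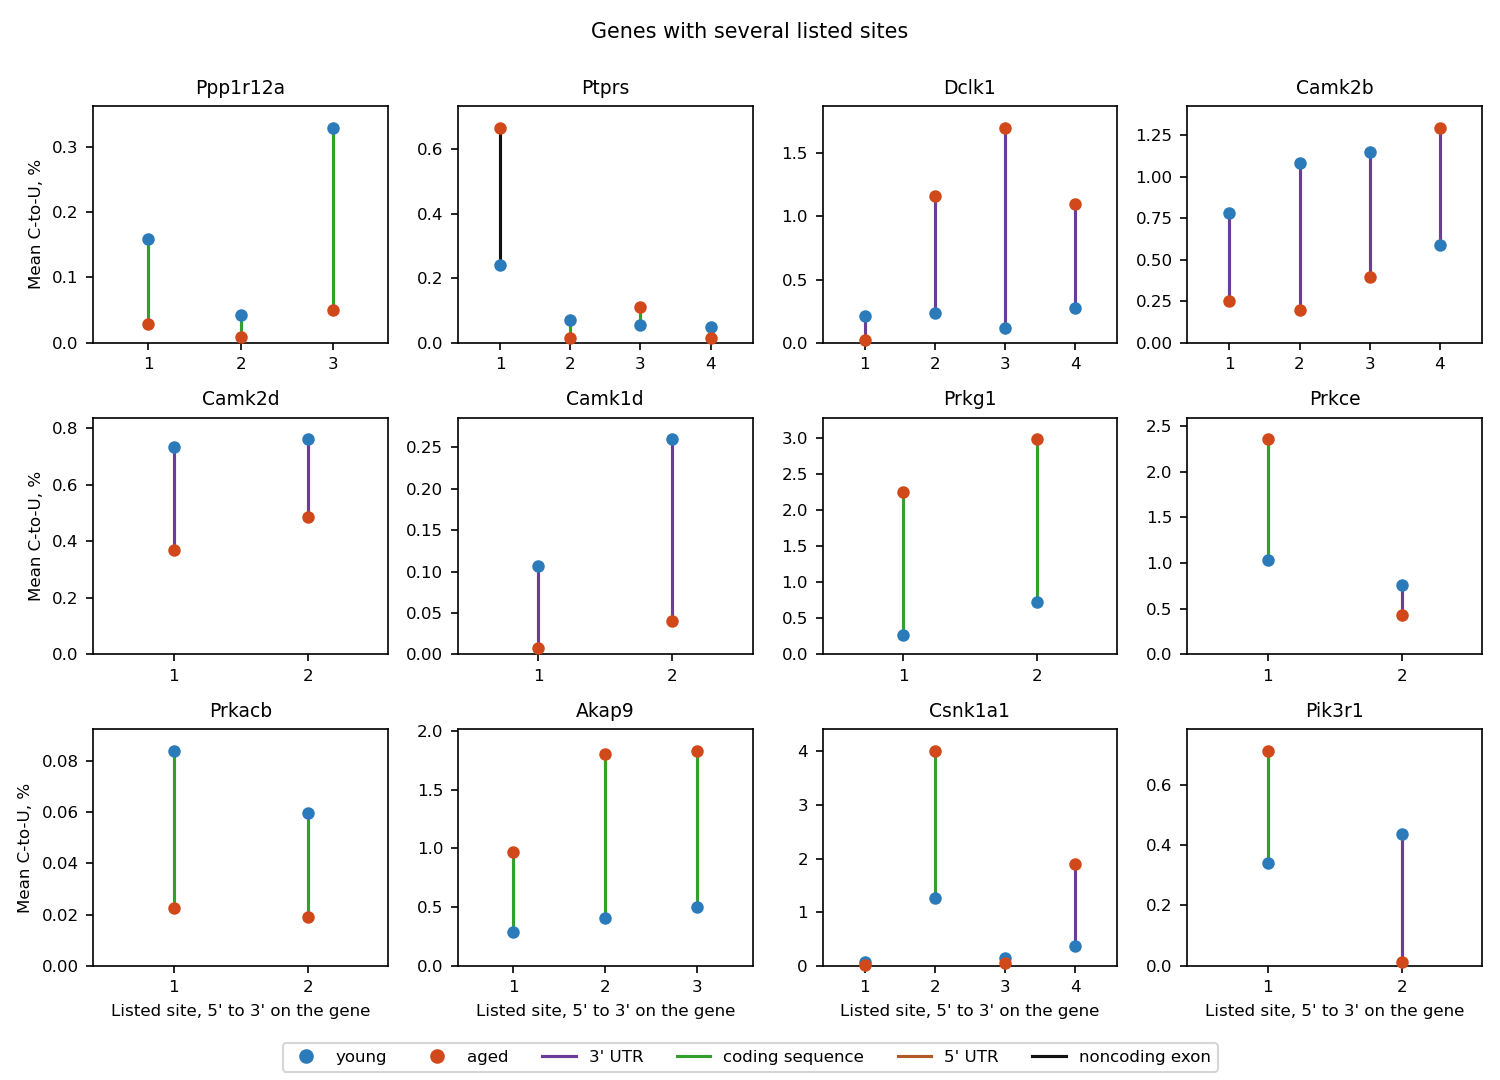
Mean C-to-U over all cells (percent, linear axis from 0, own scale in each panel) is plotted for young (blue) and aged (orange) cells at every listed site of the 12 genes with at least 2 sites, in order from 5' to 3', with the joining line coloured by transcript region. Akap9 and Prkg1 are higher at every site, whereas Camk2b is lower at its first 3 sites and higher at its last.

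Second-messenger kinase genes were 6, with 9 sites, and 3 of the 6 were higher. Prkg1, the kinase activated by cyclic GMP, had coding sites 4 bases apart in exon 1 of 18. At position 31664146 on chromosome 19, methylated cells were 1.03% (0.679 to 1.49) of the young and 4.02% (2.80 to 5.57) of the aged cells. At position 31664150 they were 0.457% (0.237 to 0.798) and 3.55% (2.41 to 5.02), with a mean of 0.273% and 2.25%, a log2 ratio of 3.04. The intervals lay apart at both, and the fraction within methylated cells differed little, at 71.0% and 74.2% for the first and 59.6% and 63.3% for the second.

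Prkce, a protein kinase C that responds to diacylglycerol without calcium, was higher at a coding site and lower in its 3' UTR. The coding site, in exon 14 of 15, had a mean of 1.04% in the young and 2.36% in the aged cells. Its share was 2.13% (1.62 to 2.76) and 2.96% (1.92 to 4.33), overlapping, and C-to-U within methylated cells was 48.6% and 79.8%. The 3' UTR site went from 0.763% to 0.430% on 25 young and 4 aged methylated cells. Prkcb, a calcium-dependent protein kinase C, had 79 methylated young cells, or 3.01% (2.39 to 3.74), and 0 of 846 in the aged, which allows a share of up to 0.355% at the floor of 3 counts set for a count of 0. The young estimate was 8.49-fold that floor, counted over all aged cells. The exact binomial interval, as used for the other sites, reaches 0.435%, so 8.49-fold is not a lower bound. This site lay in a retained-intron transcript of the gene, in a run of C and A, and its adjusted p in the authors' deposited table was 0.032.

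Genes of the cyclic AMP-dependent kinase (PKA) and its partners differed in direction. Prkar1a, a regulatory subunit, had a coding site in exon 4 of 11 with a mean of 0.211% in the young and 0.738% in the aged cells, and shares of 0.496% (0.264 to 0.846) and 2.01% (1.17 to 3.20) whose intervals lay apart. Prkar1b, the neuronal form of that subunit, went from 0.0690% to 0.00762% in its 3' UTR. Prkacb, a catalytic subunit, had coding sites in exons 9 and 10 of 10 that went from 0.0838% to 0.0224% and from 0.0596% to 0.0189%. At these 3 sites the share was higher in aged cells and C-to-U within methylated cells was 12.1%, 7.33% and 5.39% in the young and 0.461%, 1.12% and 0.888% in the aged cells.

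Akap9, a large scaffold that holds PKA at the Golgi and centrosome, had 3 coding sites in exons 7, 31 and 39 of 48, and all were higher by every measure. The means were 0.286%, 0.408% and 0.504% in the young and 0.965%, 1.80% and 1.83% in the aged cells. Methylated cells at the second were 0.572% (0.320 to 0.941) of the young and 2.13% (1.27 to 3.34) of the aged cells, and the intervals lay apart at that site, while those of the other two overlapped. C-to-U within methylated cells reached 96.8% in the aged at the third, against 66.1% in the young. Pakap, a joint locus of the PALM2 and AKAP2 anchoring proteins whose site also lies in an exon of Akap2, had a mean of 0.330% in the young and 0.0305% in the aged cells. Its reads cannot be assigned between both annotations.

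The phosphodiesterases break down cyclic AMP in both members found here, and each had 1 site. Pde4d was higher, from 0.463% to 1.03%, in a noncoding exon within a repeat of the letters AAAC, on 13 young and 12 aged methylated cells. Pde4a was lower, from 0.332% to 0.0194%, in its 3' UTR, with C-to-U within methylated cells at 31.1% and 1.64% and overlapping shares of 1.07% (0.710 to 1.54) and 1.18% (0.568 to 2.16).

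In the MAP kinase cascade, 1 of 3 genes was higher. Mapk8ip3 (JIP3) links JNK kinases to kinesin-driven axonal transport. Its coding site lay in exon 12 of 32, on chromosome 17 at position 24906900. Methylated cells were 1.14% (0.773 to 1.63) of the young and 4.02% (2.80 to 5.57) of the aged cells, with C-to-U within them at 59.5% and 78.2%. In the authors' deposited table its adjusted p was 1.52e-18. Map2k1 (MEK1), which activates the ERK kinases, had a 3' UTR site methylated in 33 young and 2 aged cells, shares of 1.26% (0.868 to 1.76) and 0.236% (0.0286 to 0.851) whose intervals lay just apart. Mapk10 (JNK3), the neuronal JNK, went from 0.116% to 0.0211% 43 bases past its stop codon, while its share was 0.953% (0.618 to 1.40) and 2.01% (1.17 to 3.20).

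Among the cyclin-dependent kinases, Cdk11b, a kinase of transcription and splicing, had a coding site that went from 0.631% to 1.40%. Its shares were 1.11% (0.742 to 1.58) and 2.84% (1.83 to 4.19), with intervals that lay apart.

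Of the other serine/threonine kinase genes, 6 of 8 were higher, or 75.0% against 55.8% of all listed genes, and they held 11 sites. Csnk1a1, casein kinase 1 alpha, which phosphorylates beta-catenin for degradation, had 4 sites in 3 kinds of transcript region on chromosome 18. Its coding site in exon 5 of 10, at position 61575454, had methylated cells at 3.32% (2.66 to 4.08) of the young and 7.92% (6.19 to 9.95) of the aged cells. The site in its 3' UTR went from 0.377% to 1.89%. That site was placed in exon 9 of 9 of a transcript other than the one used for the coding sites. The other coding site and the 5' UTR site had lower means in aged cells, 0.152% to 0.0572% and 0.0685% to 0.0169%, with a higher share at both. The intervals of the shares lay apart, with aged higher, at all 4 sites.

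Within the casein kinase family the direction was not shared. Csnk1e, a kinase of the circadian clock, was lower 130 bases past its stop codon, with methylated cells at 6.82% (5.89 to 7.86) of the young and 2.13% (1.27 to 3.34) of the aged cells. Csnk1g3 was higher at a coding site, with shares of 0.610% (0.349 to 0.989) and 3.07% (2.02 to 4.47). Csnk1g1 was higher in its 3' UTR by mean, 0.404% to 0.726%, although its shares of 0.991% (0.648 to 1.45) and 1.06% (0.488 to 2.01) were close.

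Wnk1 and Wnk2, chloride-sensing kinases that control cation-chloride cotransporters, were both higher at coding sites. For Wnk1 the mean was 0.122% in the young and 0.493% in the aged cells, with shares of 0.839% (0.526 to 1.27) and 3.78% (2.60 to 5.30). For Wnk2 it was 0.297% and 1.06%, with overlapping shares. Mark3, which phosphorylates microtubule-associated proteins, went from 0.668% to 1.40% at a coding site with overlapping shares of 1.07% (0.710 to 1.54) and 1.77% (0.996 to 2.91). Ttbk2, a tau tubulin kinase needed for cilia, went from 0.451% to 0.0943% in its 3' UTR on 22 young and 6 aged methylated cells.

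Pik3r1, the regulatory p85 subunit of phosphoinositide 3-kinase, was the lipid kinase member. Its coding site in exon 12 of 16 went from 0.340% to 0.712%, and its 3' UTR site from 0.436% to 0.0128%, a log2 ratio of -5.09 and the lowest among member sites with a methylated aged cell. That 3' UTR value rests on 6 aged methylated cells, with C-to-U within them at 1.81% against 26.6% in the young.

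Transcript region went with direction among the members as it did over the whole table. Of the 31 member sites in 3' UTRs, 8 (25.8%) had a higher mean in aged cells, against 24.1% of all listed 3' UTR sites. Dclk1 supplied 3 of the 8, and without it 5 of 27 were higher. Of the 25 coding sites, 16 (64.0%) had a higher mean, against 57.8%, and all 25 had a higher share, against 94.7%. In 3' UTRs 18 of 31 had a higher share (58.1%, against 49.2%). The median number of methylated young cells was 20 at the coding and 25 at the 3' UTR member sites. Sites with few such cells could be listed only with a higher aged share, so the listing enters this contrast by share. Read depth by transcript region in each series was not available, and its part in this contrast was not tested. The members lay in 3' UTRs more often than the table as a whole, at 51.7% of sites against 33.9%. In Prkce and Pik3r1, the coding site was higher and the 3' UTR site lower in the same gene. Csnk1a1 was an exception, with its 3' UTR site higher, although that site was placed on a different transcript from its coding sites. The median 3' UTR site lay 976 bases past the stop codon, against 669 over all listed 3' UTR sites, and the median coding site lay in an exon of 158 bases, against 210.

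**Figure D3:**
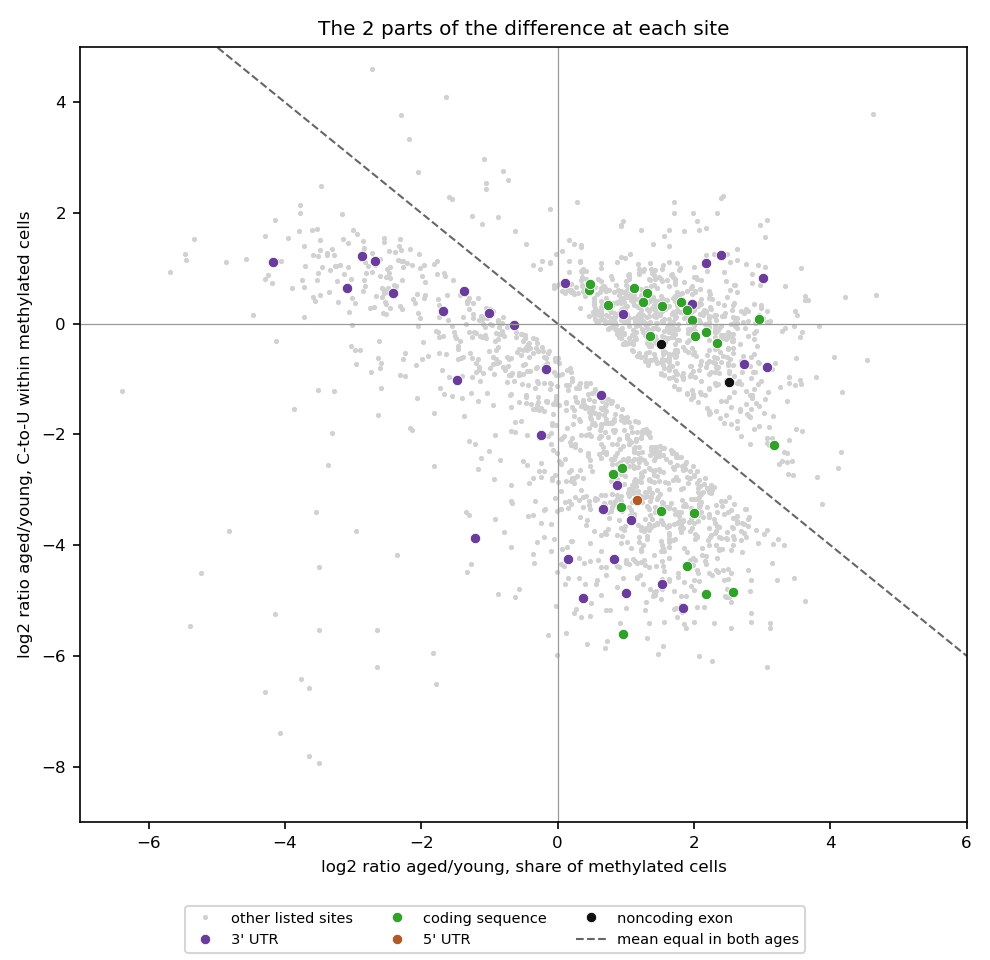
Each point is a site, with the log2 ratio of aged to young for the share of methylated cells on the horizontal axis and for C-to-U within methylated cells on the vertical axis; members are coloured by transcript region, other listed sites are grey, and sites without a methylated aged cell are left out. On the dashed line the mean is equal in both ages. Points above it have a higher mean in aged cells. The 25 coding sites all lie right of 0, where the aged share was higher, as it was at 94.7% of all listed coding sites.

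The lower coding sites and the lower 3' UTR sites differed in what was lower, among the members as over the whole table. All 9 coding sites with a lower mean had a higher share in aged cells, as had all 25 coding members, and at all 9 C-to-U within methylated aged cells was under 5%. Of all 339 listed coding sites with a lower mean, 300 had a higher share. Of the 23 3' UTR sites with a lower mean, 13 had a lower share and 10 a higher one, against 343 and 186 of 529 over all listed 3' UTR sites with a lower mean. Among the 14 member sites where both the mean and the share were lower, the median share was 4.14% in the young and 0.709% in the aged cells, and C-to-U within methylated cells was higher in the aged at 8 of the 13 with a methylated aged cell. Ppp3r1, Csnk1e, Map2k1 and Ppp3cb were among these 8, a count that was not made over all listed sites.

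C-to-U within methylated aged cells fell into separate ranges over the members. At 21 of 59 sites it was between 0.461% and 3.22%, and at the others between 8.91% and 100%, with no member site between. Other listed sites do lie in that gap, such as those of Gsk3b at 7.06% and Ywhaz at 7.4%. The median of all listed sites, 7.22%, also falls there, so the gap is not a feature of the whole table. A level under 5% was thus held by 35.6% of members, against 45.3% of all listed sites with a methylated aged cell. By region the members were close to the table, at 32.3% against 32.7% in 3' UTRs and 40.0% against 41.4% in coding sequence. In noncoding exons, which held 3 member sites, 68.5% of all listed sites were under 5%. The limit of 5% was set after the values were seen. So low a level requires many reads at the site in at least some cells, and depth at each age was not available. The table also gives no background level of C-to-U to set these values against. In young cells the same 21 sites had 4.18% to 62.6% with a median of 16.6%, and 1 of them was under 5%. The 21 sites came from 14 genes, among them all 3 sites of Ppp1r12a, 3 of 4 in Ptprs and both sites of Camk1d and Prkacb. Aged cells had the higher share at 20 of these, Pik3r1 being the exception, and the mean was lower at 20, with a Ptprs site the exception. Neither count was made over all listed sites under 5%. The 21 lay in coding sequence (10), 3' UTRs (10) and a 5' UTR (1), against 330, 224 and 47 of the 922 listed sites under 5%. The members' median within methylated cells was 29.5% in the young (60 sites) and 20.9% in the aged (59 sites), and both were above the medians of all listed sites, 18.01% and 7.22%.

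**Figure D4:**
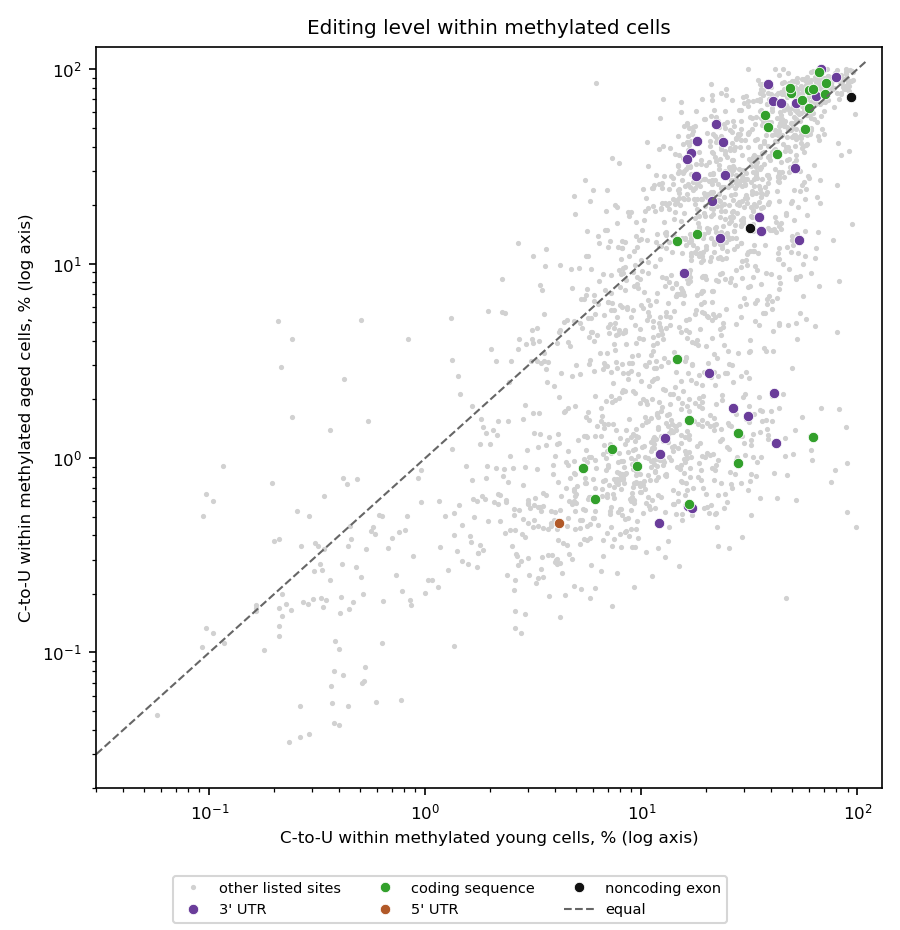
C-to-U within methylated cells is plotted for young (horizontal) and aged (vertical) cells, in percent on log axes, with 1 point per site, members coloured by transcript region and other listed sites grey. The members lie at 0.461% to 3.22% in aged cells or from 8.91% on, with a gap that other listed sites do not share. The 5' UTR site of Csnk1a1 is the leftmost member at 4.18% in young cells.

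Of the 38 genes, 26 had 1 listed site and 12 had more. Among these 12, 2 had all sites higher by mean (Akap9 and Prkg1), 4 had all sites lower (Ppp1r12a, Camk1d, Camk2d and Prkacb) and 6 had sites in both directions (Camk2b, Dclk1, Csnk1a1, Ptprs, Prkce and Pik3r1). Over all listed genes with 2 or more sites, 143 of 311 had all sites in the same direction.

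Other signalling genes in the table, from lists chosen by gene name, gave a background for the members. Their counts of higher genes stand against 55.8% of all listed genes and were not tested. Of 18 further protein kinase genes 11 were higher, among them Taok1, a kinase above the p38 and JNK pathways, from 0.838% to 4.14%, and Brsk1, a kinase of neuronal polarity, from 0.401% to 2.54%. Lower ones included Gsk3b, a kinase that restrains beta-catenin, from 0.145% to 0.0584%. The 29 sites of that list had a higher share at 27 (93.1%, against 75.4% of all listed sites). The fraction within methylated cells was higher at 6 (20.7%, against 31.9%). The neurotrophin receptor genes Ntrk2 and Ntrk3 were both higher, with 2 of their 5 sites higher by mean. Of 4 other phosphatase genes 2 were higher, among them Sacm1l, a phosphoinositide phosphatase, from 0.303% to 0.939%. Of 5 genes of cyclic nucleotide and phosphoinositide signalling 1 was higher, the adenylate cyclase gene Adcy1, from 0.708% to 2.63%. Of 5 adaptor genes that bind phosphorylated proteins or receptors, 2 were higher, Grb2 and Irs2, and the 14-3-3 genes Ywhae, Ywhah and Ywhaz were lower.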

How the data were processed

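All values were taken from the authors' deposited table, in which cells are pooled by age. Per the submitters' processing notes, reads were processed with STAR 2.7.5 and the build mm10; Bullseye, named in the design text, called C-to-U sites. No source used here gives the filters or the test. Per the file headers, the authors deposited for each site the percent of methylated cells, the C-to-U fraction over all cells and within methylated cells, counts of methylated cells (not reads), a log2 ratio of young over aged, and a p-value with its adjusted p-value. Here fractions are printed as percent, and the log2 ratio was recomputed as aged over young. The mean equalled share times fraction (within 1e-09) at all 2055 sites.

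Positions were read as counted from 0: so read, 1982 of 2049 exonic sites have a C on the strand of their gene, against 209 otherwise. Regions came from the highest-ranked GENCODE M21 transcript with an exon there, and all 38 genes matched by name. For 1 member site, in Pakap, the surrounding 41 bases also lie in another annotated gene. Intervals were computed with scipy 1.17.1 at a confidence level of 95%, and a count of 0 has a floor of 3 counts. Interval coverage was tested on simulated independent binomial counts. Those counts held no variation between mice, libraries or read depths, so the test cannot speak to such variation here.

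Members, gene lists, named genes and alternatives were chosen with earlier results of these data known. The naming rule took the 10 largest increases and 10 largest decreases, up to 3 genes per role and genes with 3 or more sites. That gave 27 genes; the other 11 were added to account for the remaining members. The values of 1 member gene, and of some genes in the other lists, are not reported here. Pakap was moved from the kinases to the anchoring proteins after its name was seen in the table. Per-cell expression was not analysed here, and no samples were compared, since the table holds no value per library.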

Additional observations from a re-analysis of the deposited data

How the results depend on the processing

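Which age was higher changed with the quantity used. The counts by share keep the limit set by the listed minimum of 25 methylated cells over both ages. When sites were called by their share of methylated cells, 46 of 60 member sites were higher in aged cells in place of 26 by mean, 27 of 38 genes in place of 17, 18 of 31 sites in 3' UTRs in place of 8, and 25 of 25 coding sites in place of 16. With at least 10 methylated cells in each age, 17 of 31 genes were higher, which turns the majority, but this filter removes sites for having few methylated aged cells and so takes out lower sites by its construction. Without Dclk1, 5 of 27 sites in 3' UTRs were higher. At 10 genes the share of methylated cells was higher in aged cells while the mean was lower at the site with the largest difference, by 1.17 points of share in Camk1d, 0.267 in Camkv, 1.06 in Mapk10, 0.618 in Pakap, 0.115 in Pde4a, 4.14 in Ppp1r12a, 0.866 in Prkacb, 1.08 in Prkar1b, 0.572 in Ptpn2 and 0.698 in Ptprj. With the 4 genes left out of the rule added, 33 of 107 sites were higher. All alternatives for 3' UTR and coding sites were added after the data were seen. No paired analysis was possible because the table gives 1 pooled value per age. Replicates could not be left out for the same reason. The number of methylated aged cells, a median of 17 per member site, limits how small a difference in share can be seen.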
